A study of Mus musculus with 1677 samples.

Results

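The 7 genes described here make, clear or use nicotinamide adenine dinucleotide (NAD), and they were chosen by name from the 24537 rows of a gene count table: Nampt, Nmrk1, Nmnat1, Nmnat3, Nnmt, Sirt1 and Sirt3. Messenger RNA was sequenced from 22 tissues of wild-type C57BL/6J mice, bought at 10 weeks of age and given 2 weeks on chow under 12 h of light and 12 h of dark. All mice then ate a Western diet (45% fat, 17% sucrose) for 7 weeks. The time-restricted feeding group (TRF, 518 libraries) had food for 9 h a day, from ZT13 to ZT22, and the ad libitum feeding group (ALF, 517 libraries) had it at all hours. ZT counts hours from lights on, so that ZT12 is lights off. Tissues were taken at 12 clock times, 2 h apart, with up to 2 libraries per tissue, feeding group and clock time. Of these groups, 507 held 2 libraries and 21 held 1. No group ate chow throughout, so every difference between TRF and ALF is one within a Western diet.

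Nicotinamide phosphoribosyltransferase (NAMPT, the protein of Nampt) catalyses the rate-limiting step by which cells rebuild NAD from nicotinamide, and in mouse liver and fat it is known as an output of the circadian clock. The clock activators CLOCK and BMAL1 drive Nampt, and the NAD-dependent deacetylase SIRT1 acts back on the clock, a loop through which NAD levels cycle. NMRK1 enters the same route from nicotinamide riboside, the NMNAT enzymes join the mononucleotide to ATP to complete NAD, NNMT methylates nicotinamide and so removes it from salvage, and SIRT3 is the main deacetylase of mitochondria.

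The start regions of Nampt and Sirt1 are shown because Nampt is the known clock output among the 7 genes and SIRT1 the arm that acts back on the clock, and because the E-box CACGTG is the site that CLOCK and BMAL1 bind. RefSeq (GRCm38.p6) gives windows of 300 bases, 250 before and 50 after the transcription start, for 6 of the 7 genes, with 8 windows in all. Capitals mark CACGTG, searched on both strands.
Nampt, chr12:32820085-32820384, plus strand: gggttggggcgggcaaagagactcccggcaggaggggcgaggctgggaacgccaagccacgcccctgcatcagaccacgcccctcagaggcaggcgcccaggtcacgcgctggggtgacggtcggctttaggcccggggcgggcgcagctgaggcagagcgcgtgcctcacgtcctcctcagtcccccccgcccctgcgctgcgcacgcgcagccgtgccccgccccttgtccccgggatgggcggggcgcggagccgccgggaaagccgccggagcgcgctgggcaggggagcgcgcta
Sirt1, chr10:63338986-63339285, minus strand: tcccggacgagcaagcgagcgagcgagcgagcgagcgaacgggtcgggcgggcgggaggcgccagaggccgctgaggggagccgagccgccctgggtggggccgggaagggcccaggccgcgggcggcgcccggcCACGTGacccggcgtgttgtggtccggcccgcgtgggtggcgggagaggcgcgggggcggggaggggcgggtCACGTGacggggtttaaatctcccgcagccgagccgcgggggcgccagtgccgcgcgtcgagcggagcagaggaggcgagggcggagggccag
The Sirt1 window held 2 copies of CACGTG, beginning 115 and 43 bases before the start site, and 7.15% of all 32851 windows of this length held at least 1. None of the motifs searched lay in the Nampt window or in the windows of the other members. The other motifs were the related E-box CACGTT (in 4.68% of windows), the D-box TTATGTAA or TTACGTAA (1.06%) and the end of the REV-ERB and ROR element, TAGGTCA or TGGGTCA (6.45%). A window without these letters says nothing of sites elsewhere in the gene.

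In the mouse annotation for GRCm38 (GENCODE vM21), Nampt lies on chromosome 12 (32819545 to 32853349, plus strand), Nmrk1 on 19 (18631950 to 18652428, plus), Nmnat1 on 4 (149467572 to 149485202, minus) and Nmnat3 on 9 (98287435 to 98420438, plus). Nnmt lies on 9 as well (48591877 to 48605153, minus), Sirt1 on 10 (63319005 to 63381704, minus) and Sirt3 on 7 (140863666 to 140882309, minus). Nampt overlaps Gdap10, Nmnat1 overlaps Tmem274, Nmnat3 overlaps the pseudogene Gm28530, Sirt1 overlaps the antisense RNA Gm16145, and Sirt3 overlaps Psmd13 and Ric8a. Whether counting used the strand is not given in the sources used here, so reads of such partners cannot be told apart from those of the members.

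Library totals had a median of 11.3 M counts, and the smallest was 2.26 M. The ribosomal RNA row Rn45s held a median of 17.5% of counts in TRF and 16.9% in ALF libraries of SCN. In every other tissue its median was 4.05% or less. The labels do not say which libraries came from the same mouse, so p-values measure the spread between these samples, and libraries of several tissues may share mice. Before any comparison, 18 libraries stood apart: 15 correlated best with the mean profile of another tissue than their own, and 3 exceeded 100 M counts. The 15 included TRF libraries of duodenum and ileum, both replicate 2 at ZT4, each of which correlated best with the other's tissue, and 5 ALF libraries of inguinal white fat (iWAT) that correlated best with epididymal white fat (eWAT). The defining genes of most tissues were highest where the labels put them, among them Ucp1 in brown fat (BAT), Umod in kidney medulla (KIM), Slc34a1 in kidney cortex (KIC), Star in the adrenal gland and Alb in liver. The exceptions lay in small brain regions and among genes that the gut segments share: Agrp had a median of 5.46 CPM in the arcuate nucleus (ARC) against 5.96 CPM in the whole hypothalamus, and Ppp1r17 and Grp were higher in the suprachiasmatic nucleus (SCN) than in the dorsomedial hypothalamic nucleus (DMH). In BAT the clock genes went against the labelled clock times. Dbp, a clock output gene, was high at ZT4 (93.3 CPM in TRF and 116 CPM in ALF) and again at ZT18 (92.5 CPM in TRF and 94.6 CPM in ALF), and lay at 4.08 CPM in TRF and 4.55 CPM in ALF at ZT12. Among 16 clock genes the smallest adjusted p of a 24 h rhythm in BAT was 0.629 in TRF and 0.713 in ALF, so peak times in BAT are not given. Fabp6, an ileum marker with a median of 3460 CPM there, lay at 2.53 CPM in 1 ileum library.

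Levels are given in CPM (counts per M, after TMM scaling over all 1035 libraries), and between genes only per kilobase of exon. Nampt was the most abundant of the 7 genes per kilobase in 19 tissues and Nnmt in the other 3, which were liver, eWAT and iWAT. The median over BAT libraries was 815 CPM of Nampt, above heart (379 CPM), KIM (358 CPM), muscle (311 CPM) and KIC (300.4 CPM). At the low end stood pancreas, with a median of 30.9 CPM, and the middle of the range was crowded: 16 of 21 neighbouring pairs in the order had overlapping quartiles. Nmrk1 was concentrated in KIC (116 CPM), KIM (73.9 CPM) and liver (43.98 CPM), and it lay under 12 CPM in every other tissue. Nnmt had the widest range of the 7, from 289 CPM in liver, 228 CPM in eWAT and 165 CPM in iWAT down to 0.221 CPM in the dentate gyrus (DG). Both NMNAT genes were highest in muscle (Nmnat1 at 23.7 CPM, Nmnat3 at 34.02 CPM) and heart, and lowest in SCN. Sirt1 was the most even, between 12.3 CPM in amygdala and 42.3 CPM in spleen, with overlapping quartiles for all 21 neighbouring pairs. Sirt3 was highest in liver (162 CPM) and lowest in spleen (7.21 CPM). These orders across tissues rest on the scaling: with library totals alone, the mean of Sirt3 in liver was 80.7 CPM in place of 163 CPM. Nnmt in liver then averaged 206 CPM in TRF and 124 CPM in ALF, below the 209 CPM in TRF and 245 CPM in ALF of eWAT, so that liver no longer came first.

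**Figure D1:**
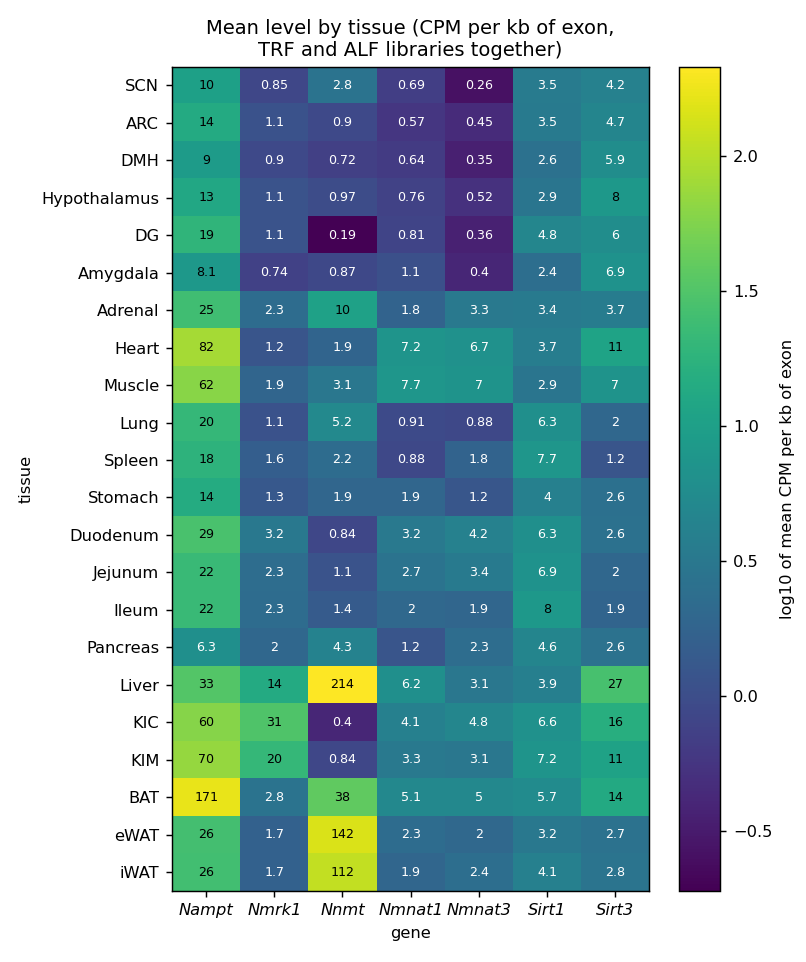
Mean level of each gene (columns) in each tissue (rows) in CPM per kilobase of exon, over TRF and ALF libraries together; colour follows the log10 value. Nampt leads in 19 tissues, at 171 in BAT, and Nnmt leads in liver (214), eWAT (142) and iWAT (112).

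A 24 h rhythm was tested in each feeding group by an edgeR quasi-likelihood test of a cosine and sine, with p-values adjusted by Benjamini-Hochberg over all genes of a tissue and called under 0.05. All members passed the filter on low counts in all 22 tissues, except Nnmt, which passed in 19 and was not tested in DG, KIC and KIM. Of the 151 tested pairs of gene and tissue, 44 were rhythmic in TRF, against 27.4% of all gene tests, and 25 were rhythmic in ALF, against 11.7%. The members' own shares were 29.1% in TRF and 16.6% in ALF. Rhythm was called in both groups for 21 pairs, in TRF alone for 23 and in ALF alone for 4. Being called in only 1 group is not a difference: the test of the difference itself passed for 4 pairs (2.65%), against 1.74% of all gene tests. The log2 amplitude is the distance from the mid-level to the peak. Its median was 0.28 in TRF and 0.17 in ALF in the 23 pairs called in TRF alone. In the 4 pairs called in ALF alone it was 0.148 in TRF and 0.385 in ALF. Picking pairs by the group in which they passed favours a larger amplitude in that group. Of the 21 pairs rhythmic in both groups, 12 had the larger amplitude in TRF, with a median difference of 0.016. Among the 21 pairs rhythmic in both, the fitted peak came later in TRF in 16, by a median of 0.744 h over the 21. Clock genes of the tissues where they cycled in both groups were later in TRF as well: Dbp in 20 of 21 (median 1.01 h), Per2 in 17 of 18 (0.825 h), Nr1d1 in 16 of 19 (0.674 h) and Arntl in 12 of 16 (0.905 h).

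Fewer pairs were called rhythmic in the brain regions than elsewhere, and fewer genes at large were too. In the 6 brain regions, 1 of 41 pairs was rhythmic in TRF and 2 in ALF, where 8.96% and 3.24% of all gene tests passed. In the 16 other tissues, 43 of 110 pairs were rhythmic in TRF and 23 in ALF, where 34.5% and 15% of all gene tests passed. Stomach and spleen had no rhythmic member in either group, although 16 and 9 of the 16 clock genes were rhythmic there in TRF. Of all genes tested, 21.4% in TRF and 2.9% in ALF were rhythmic in stomach, and 2.99% in TRF and 0.414% in ALF in spleen. At an unadjusted p under 0.05, 1 of 7 members passed in stomach and 0 in spleen in TRF, and 2 passed in stomach and 1 in spleen in ALF.

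Nampt was rhythmic in 11 tissues in TRF and in 10 in ALF. Of 18571 genes tested, 0.652% were rhythmic in ALF in at least as many tissues, and 5.37% in TRF. That total includes genes tested in fewer tissues than Nampt, since 9761 genes passed the filter in all tissues. Genes tested in few tissues could not reach such counts, and the share among genes tested in all tissues was not computed. The same total underlies the shares given below for the other members. The 10 tissues of both groups were liver, heart, lung, KIC, KIM, duodenum, jejunum, ileum, eWAT and iWAT. Liver had the deepest course: the mean of the clock times ran between 76.3 CPM at ZT4 and 294 CPM at ZT12 in TRF, and between 78.7 CPM at ZT0 and 298 CPM at ZT14 in ALF. The fitted log2 amplitude in liver was 0.94 ± 0.08 (SE) in TRF and 0.83 ± 0.08 in ALF, with peaks at ZT14.8 ± 0.3 in TRF and ZT13.8 ± 0.4 in ALF. Peak and trough were thus 3.65-fold apart in TRF and 3.16-fold apart in ALF. In liver the 24 TRF libraries ran between 75.1 and 311 CPM with a median of 121 CPM, and the 24 ALF libraries between 71.7 and 316 CPM with a median of 153.5 CPM. The groups overlapped throughout, and the rhythm did not pass the test of a difference (adjusted p = 0.325).

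Across the rhythmic tissues, pancreas excepted, the Nampt peak fell within the dark phase, which began at ZT12. The circular mean of the peaks was ZT16.4 in TRF over 11 tissues, pancreas included, and ZT15.4 in ALF over 10 tissues without it. In ALF all 10 peaks fell between ZT13.8 (liver) and ZT17.1 (heart). In TRF 10 of the 11 peaks fell between ZT14.2 (jejunum) and ZT18.9 (eWAT). The pancreas was the exception, with a fitted peak at ZT0.0286 in TRF (adjusted p = 0.0456) and no rhythm called in ALF. That call was lost with GC offsets (adjusted p = 0.138), without the filter on low counts (0.0665) and with a second harmonic (0.0774). Relative to the clock genes of the same tissue, Nampt peaked a median of 3.71 h after Dbp in TRF and 4.04 h after it in ALF. It peaked 8.61 h before Arntl, which encodes BMAL1, in TRF and 8.44 h before it in ALF. Its distance to Per2, a clock repressor with E-boxes, was shorter: 1.13 h before it in TRF and 0.186 h after it in ALF. These are medians over the tissues in which both genes were rhythmic.

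**Figure D2:**
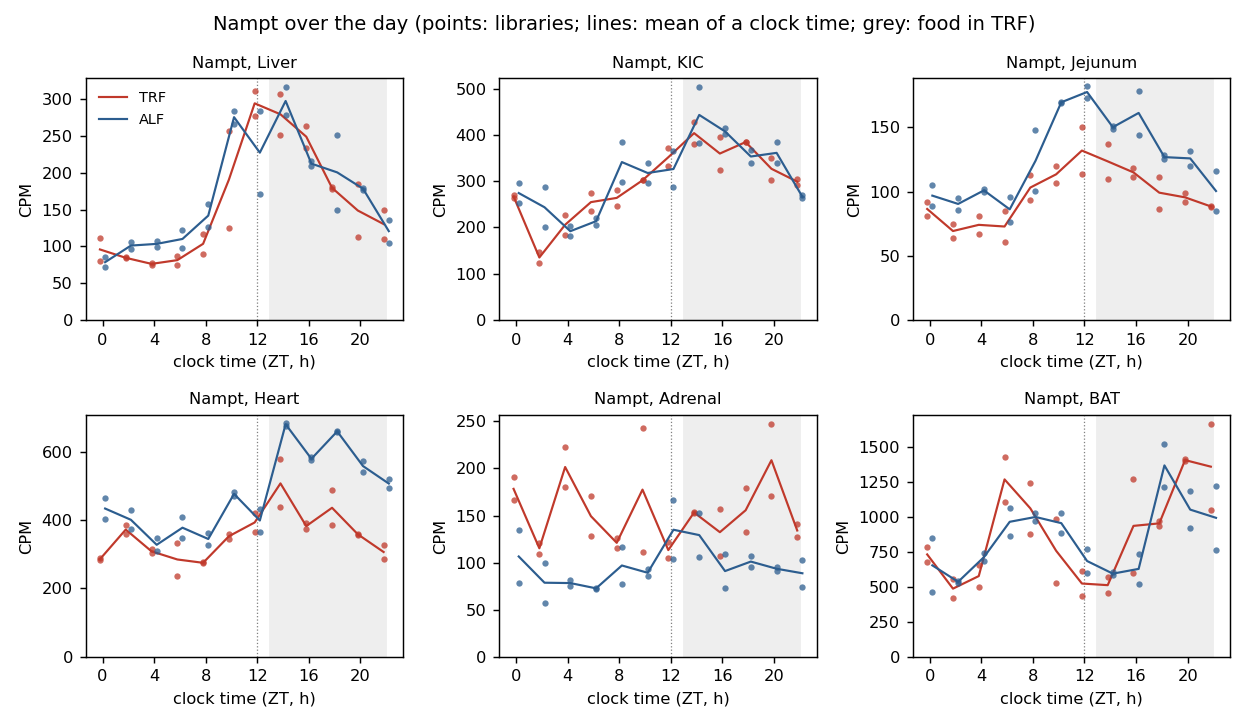
CPM of Nampt against clock time in 6 tissues, TRF in red and ALF in blue; points are libraries, lines join the means of a clock time, and the grey band marks when TRF mice had food. Liver and KIC follow the same course in both groups, jejunum and heart run lower in TRF, adrenal runs higher in TRF, and BAT shows 2 rises within the labelled day in both groups.

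The Nampt rhythm differed between feeding groups in 1 tissue, eWAT (adjusted p = 0.00505), a call lost without replicate 2 (adjusted p = 0.303). The log2 amplitude there was 0.61 ± 0.07 in TRF and 0.26 ± 0.07 in ALF, and the peak came at ZT18.9 ± 0.4 in TRF and ZT15.8 ± 1.0 in ALF. At ZT16 the mean was 255 CPM in TRF, while no clock time of ALF exceeded 153 CPM. The ALF rhythm in eWAT was lost with GC offsets (adjusted p = 0.077) and with a term for the number of sequencing runs (0.0914). BAT, where Nampt was most abundant, held 418 to 1665 CPM in TRF (median 830) and 460.5 to 1523 CPM in ALF (median 807). Its clock-time means there were high at ZT6 (1268 CPM in TRF and 965 CPM in ALF), low at ZT14 (512 CPM in TRF and 594 CPM in ALF) and high again at ZT20 (1406 CPM in TRF and 1052 CPM in ALF).

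Nmrk1, the riboside kinase, was rhythmic in 7 tissues in TRF and in 6 of the same 7 in ALF: liver, KIC, KIM, duodenum, jejunum and ileum, with iWAT in TRF only. Of 18571 genes tested, 26.3% were rhythmic in as many tissues in TRF and 4.72% in ALF. The Nmrk1 peaks lay in a narrow band, between ZT12.8 (iWAT) and ZT14.8 (liver) in TRF and between ZT12.1 (KIM) and ZT14.1 (liver) in ALF. In liver the log2 amplitude was 0.77 ± 0.11 in TRF and 0.86 ± 0.11 in ALF, and clock-time means ran between 22.2 CPM (ZT4) and 89.4 CPM (ZT14) in TRF and between 21.5 CPM (ZT2) and 86.4 CPM (ZT14) in ALF. All 6 tissues of both groups had a later fitted peak in TRF, by 0.637 h (ileum) to 1.26 h (KIC), but the adjusted p of a difference in rhythm was 0.524 or more in each of the 7 tissues. The shift in KIC had an SE of 0.874 h. In the tissues where both cycled, Nmrk1 peaked a median of 1.85 h after Dbp in TRF and 2.22 h after it in ALF.

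Nmnat3, the mitochondrial member of the NMNAT enzymes, peaked in the light phase. It was rhythmic in 11 tissues in TRF and in 4 in ALF (duodenum, heart, KIM and lung). As many tissues were reached by 5.37% of genes in TRF and by 17.7% in ALF. In those 11 tissues the smallest adjusted p of a difference in the Nmnat3 rhythm was 0.344 (iWAT). Peaks of Nmnat3 in TRF ranged from ZT4.3 in muscle to ZT11.4 in pancreas, with a circular mean of ZT7.76. In ALF they ranged from ZT6.5 in duodenum to ZT8.1 in lung, with a circular mean of ZT7.34. In TRF its log2 amplitude was largest in liver. It was 0.57 ± 0.11 in TRF and 0.36 ± 0.11 in ALF, where rhythm did not pass (adjusted p = 0.0571). Liver means ran between 8.07 CPM (ZT20) and 26.7 CPM (ZT10) in TRF, and between 8.79 CPM (ZT0) and 21.1 CPM (ZT6) in ALF. The lung rhythms were lost with GC offsets (adjusted p = 0.065 in TRF and 0.0778 in ALF), and so was that of duodenum in ALF (0.0593), which was also lost without the filter on low counts (0.0531). Relative to Dbp, Nmnat3 peaked a median of 4.13 h earlier in TRF and 3.33 h earlier in ALF. Nmnat1, the nuclear enzyme, cycled little: in heart in both groups, with a peak at ZT21.4 in TRF and ZT21.5 in ALF and log2 amplitudes of 0.18 and 0.12, and in KIC and eWAT in TRF. Rhythm in at least as many tissues was called for 67.0% of genes in TRF and 72.6% in ALF.

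Nnmt, the methyltransferase, was rhythmic in liver and jejunum in TRF and in hypothalamus and lung in ALF. At least as many tissues were rhythmic for 76.7% of genes in TRF and 49.8% in ALF. In liver the log2 amplitude of Nnmt was 0.69 ± 0.16 in TRF, with a peak at ZT18.8 ± 0.9, and 0.45 ± 0.16 in ALF (adjusted p = 0.056). In jejunum the rhythm differed between the groups (adjusted p = 0.0459): the log2 amplitude was 0.70 ± 0.12 in TRF, with a peak at ZT20.4 ± 0.7, and 0.18 ± 0.12 in ALF. The levels behind it were low, with 24 TRF libraries between 0.663 and 4.27 CPM and 24 ALF libraries between 0.698 and 2.79 CPM, and the difference was lost without the filter on low counts (adjusted p = 0.0598), without replicate 1 (0.428) and without replicate 2 (0.71). In the whole hypothalamus the ALF rhythm rested on clock-time means of 0.906 to 10.2 CPM, beside a median of 1.19 CPM over all libraries of that tissue. The 10.2 CPM was at ZT6, where ALF had 1 library. The call was lost with either replicate number left out.

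Sirt1 was rhythmic in 4 tissues in TRF (heart, muscle, iWAT and KIM), with log2 amplitudes between 0.185 (heart) and 0.20 (iWAT). In TRF 57.2% of genes were rhythmic in at least as many tissues. By the edgeR test Sirt1 was rhythmic in no tissue in ALF, and at an unadjusted p under 0.05 it passed in 3 tissues in ALF. The TRF rhythm in KIM was lost with GC offsets (adjusted p = 0.131), with a term for the number of runs (0.0756) and without the libraries that stood apart (0.0613), and that in iWAT without the filter on low counts (0.0502). Sirt3 was rhythmic in 6 tissues in TRF and in 2 in ALF, and 35.8% of genes had as many in TRF and 49.8% in ALF. The Sirt3 peaks did not keep together: ZT2.07 in muscle, ZT6.5 in ileum, ZT8.3 in jejunum, ZT10.1 in adrenal, ZT10.5 in liver and ZT18.6 in heart, all in TRF. In ALF it was called in SCN, with a peak at ZT19.0, and in KIM, with a peak at ZT7.09. Both calls were lost with either replicate number left out. The KIM call lay at the edge of the threshold (adjusted p = 0.05 after rounding) and was also lost under 4 other settings. In muscle the TRF rhythm was lost with a term for the number of runs (adjusted p = 0.0584).

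The Sirt3 rhythm differed between feeding groups in liver (adjusted p = 0.0234) and jejunum (adjusted p = 0.0342). The liver call was lost without replicate 1 (adjusted p = 0.182) and without replicate 2 (0.533), and so was the jejunum call (0.0898 and 0.824). In liver the log2 amplitude was 0.46 ± 0.08 in TRF, with a peak at ZT10.5 ± 0.6, and 0.20 ± 0.08 in ALF, where rhythm was not called (adjusted p = 0.10). At ZT12 the 2 TRF libraries held 209 and 262 CPM and the 2 ALF libraries 166 and 162 CPM. At ZT20 the TRF libraries held 109 and 82.7 CPM and the ALF libraries 231 and 181 CPM, so that the order of the groups turned over between those clock times. In jejunum the log2 amplitude was 0.36 ± 0.05 in TRF and 0.08 ± 0.05 in ALF, with clock-time means between 8.23 CPM (ZT18) and 15.7 CPM (ZT8) in TRF and between 9.39 CPM (ZT22) and 12.6 CPM (ZT20) in ALF. The jejunum call was lost without the filter on low counts (adjusted p = 0.051).

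**Figure D3:**
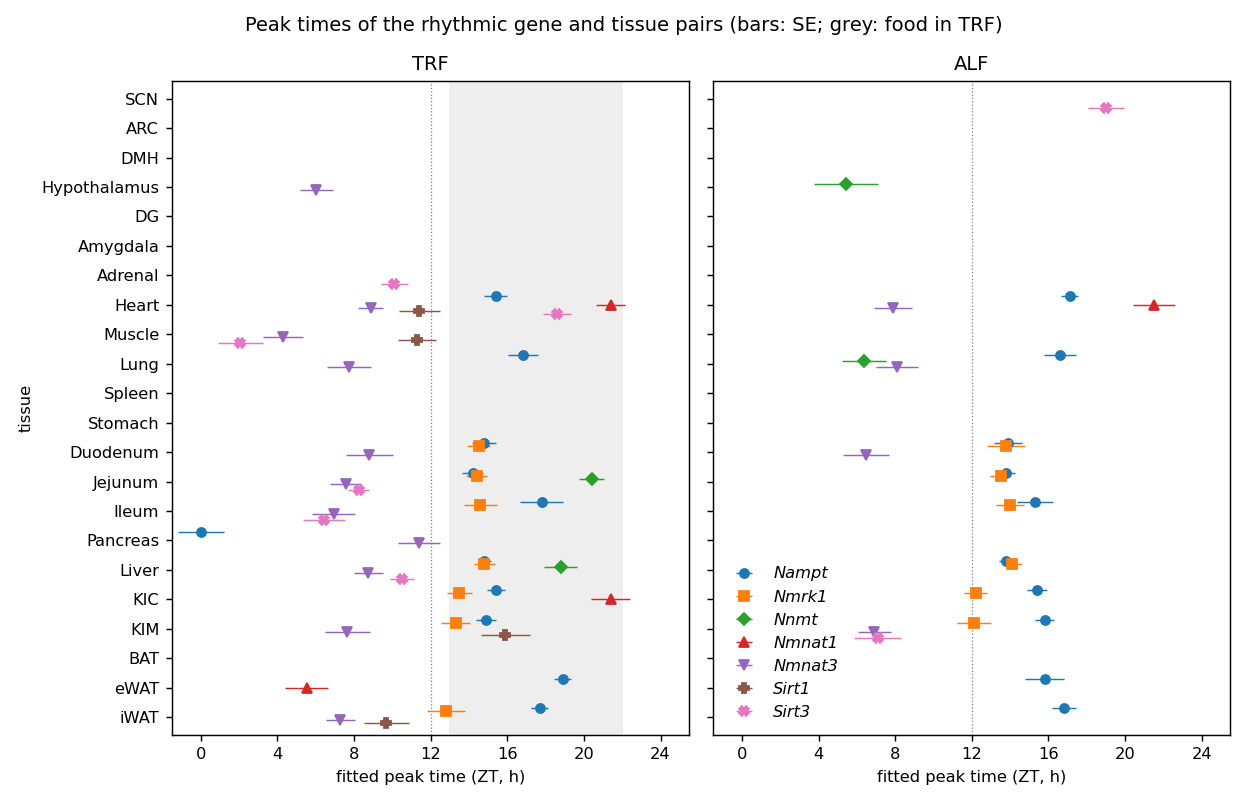
Fitted peak time (horizontal, ZT in hours, bars are SE) of each rhythmic pair of gene and tissue (rows), with TRF on the left, where grey marks access to food, and ALF on the right. Nampt (except in pancreas) and Nmrk1 gather between ZT12 and ZT19, Nmnat3 between ZT4 and ZT12, and the 6 brain rows are nearly empty.

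**Figure D4:**
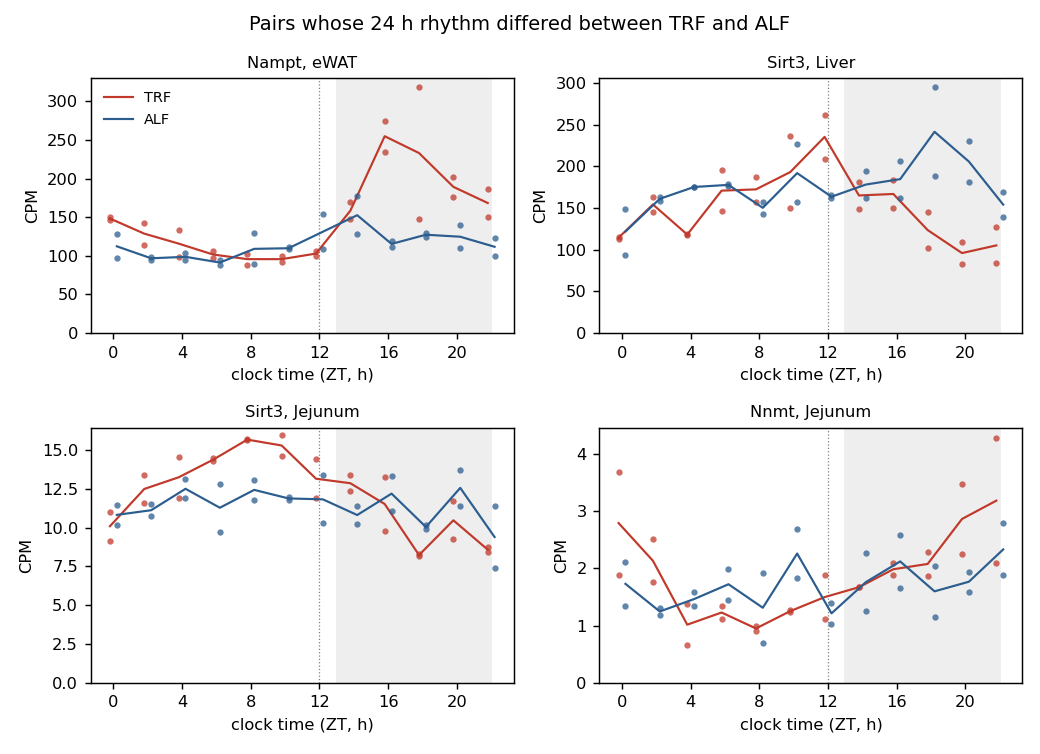
CPM against clock time for the 4 pairs whose rhythm differed, TRF in red and ALF in blue, with points for libraries, lines for clock-time means and grey for access to food in TRF. Nampt in eWAT reaches 255 CPM at ZT16 in TRF, and Sirt3 in liver falls to 96.0 CPM at ZT20 in TRF, against 206 CPM in ALF.

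The mean level over the day was compared between TRF and ALF in each tissue with clock time as a factor. It was higher in TRF for 16 of the 151 pairs (10.6%), against 10.0% of all gene tests, and lower for 12 (7.95%), against 9.72%. The members' median log2 fold change was -0.00354, and no gene moved one way in most tissues. In bulk tissue, fewer cells of a type and less RNA per cell cannot be told apart. Of the 28 changed pairs, 10 were in the 2 white fat depots and 8 in the 3 gut segments. These were 71.4% of the pairs tested in fat, where 62.8% of all gene tests passed. In gut they were 38.1% of the pairs tested, where 31.8% of all gene tests passed. The fat depots also had the largest backgrounds: in eWAT 30.2% of genes were higher and 29.0% lower in TRF, and in iWAT 35.1% were higher and 31.2% lower. All 28 pairs kept their direction under every alternative that was run. With only 1 of the 2 replicate numbers in the fit, 6 passed whichever was left out: Nampt in heart and jejunum, Sirt1 in duodenum, jejunum and hypothalamus, and Nmnat3 in iWAT.

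Nampt was higher in TRF in 4 tissues and lower in 2. In adrenal the 24 TRF libraries held 104.5 to 247 CPM (median 147) and the 24 ALF libraries 57.6 to 166 CPM (median 94.2), and the TRF mean was the higher at 11 of 12 clock times. The log2 fold change was 0.67 ± 0.10 (SE, adjusted p = 7.82e-06), lost without replicate 1 (adjusted p = 0.0661). In the same adrenal libraries 3 of 5 tested neuron markers rose and 4 of 6 tested lymphocyte markers fell, and their part in the result was not tested. In heart the TRF libraries held 237 to 577 CPM (median 358) and the ALF libraries 308 to 684 CPM (median 468), and TRF was lower at 12 of 12 clock times. The log2 fold change in heart was -0.41 ± 0.05 (adjusted p = 5.93e-09), the smallest p of the 28 pairs. In the heart libraries 6 of 8 macrophage markers rose, by a median log2 fold change of 0.28, and 3 of 6 erythroid markers rose, and their part in the result was not tested.

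In jejunum Nampt held 60.8 to 150 CPM in TRF (median 92.7) and 76.4 to 182 CPM in ALF (median 123), again lower in TRF at 12 of 12 clock times. The log2 fold change was -0.34 ± 0.05 (adjusted p = 1.26e-06), and -0.17 with GC offsets (adjusted p = 0.00305). In jejunum 8 of 9 adipocyte markers rose, with a summed level of 230 to 576 CPM in TRF and 163 to 356 CPM in ALF, and 4 of 5 tested erythroid markers rose; their part in the result was not tested. In eWAT Nampt rose by 0.32 ± 0.09 on the log2 scale (adjusted p = 0.0036) and in iWAT by 0.28 ± 0.07 (adjusted p = 0.000324), with TRF higher at 9 and 12 of 12 clock times. In eWAT the TRF libraries held 88.7 to 318 CPM (median 145) and the ALF libraries 87.6 to 178 CPM (median 110.5), and in iWAT the TRF libraries held 91.4 to 240 CPM (median 130.4) and the ALF libraries 66.1 to 218 CPM (median 118). The groups overlapped in both depots. Both calls were lost without replicate 1 (adjusted p = 0.262 in eWAT and 0.121 in iWAT). In muscle Nampt rose by 0.165 ± 0.042 (adjusted p = 0.00353), lost with either replicate number left out. In liver, where Nampt cycled most, the mean level did not pass the test (log2 fold change -0.13 ± 0.08, adjusted p = 0.275).

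**Figure D5:**
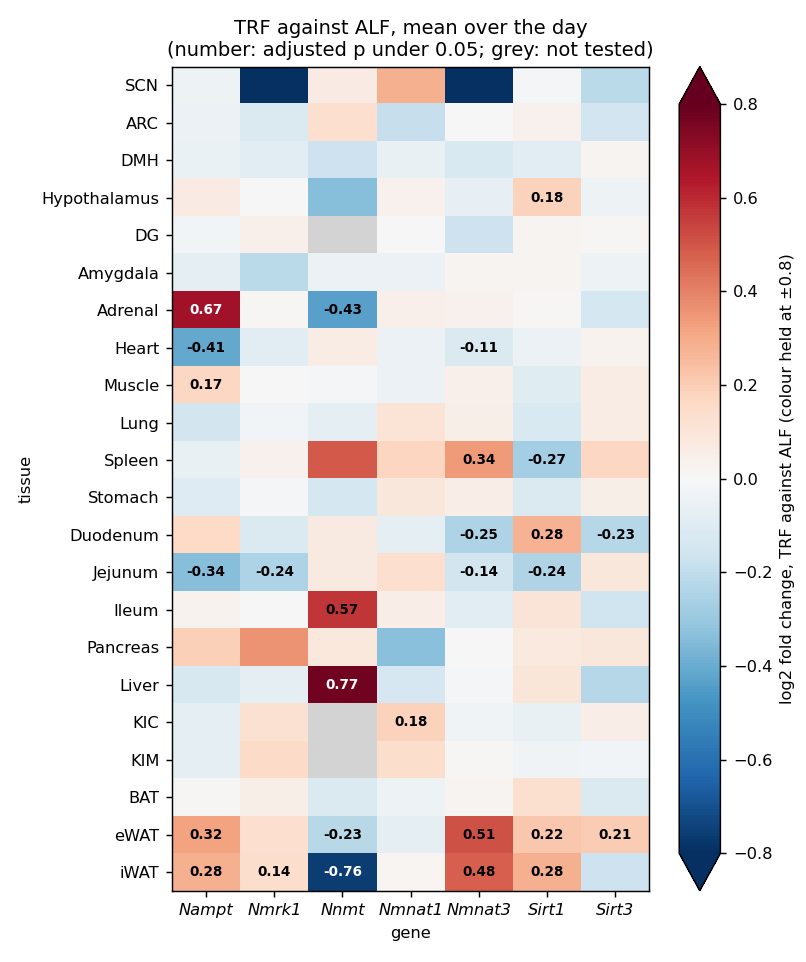
Log2 fold change of the mean level, TRF against ALF, for each gene (columns) and tissue (rows); red is higher in TRF, blue lower, grey not tested, and numbers mark the 28 pairs with an adjusted p under 0.05. Nnmt runs from 0.77 in liver to -0.76 in iWAT, and the 6 brain rows hold 1 number, Sirt1 in hypothalamus (0.185).

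Nnmt showed the largest changes among the 28 pairs, and in opposite directions in liver and fat. In liver the TRF libraries held 166 to 898 CPM (median 398) and the ALF libraries 114 to 588 CPM (median 195), with TRF higher at 11 of 12 clock times. The log2 fold change was 0.77 ± 0.17 (adjusted p = 0.00074). It was 1.10 in the hours when TRF mice had food (ZT14 to ZT22, adjusted p = 0.00141) and 0.54 at ZT0 to ZT12, which did not pass, and the test of the difference between the windows did not pass (adjusted p = 0.292). Fibroblast markers, 5 of 5, rose in the same livers by a median log2 fold change of 0.46, while 3 of 5 tested adipocyte markers fell, and their part in the result was not tested. In iWAT the TRF libraries held 62.7 to 172 CPM of Nnmt (median 135) and the ALF libraries 90.3 to 303 CPM (median 240), lower in TRF at 11 of 12 clock times. The log2 fold change was -0.76 ± 0.11 (adjusted p = 4.34e-07). In eWAT the log2 fold change of Nnmt was -0.225 ± 0.073 (adjusted p = 0.00852). All 3 calls were lost without replicate 1 (adjusted p = 0.0569 in liver, 0.0632 in iWAT and 0.224 in eWAT). Smaller levels stood behind the fall in adrenal (-0.43 ± 0.15, adjusted p = 0.023), with medians of 12.7 CPM in TRF and 17.1 CPM in ALF, and the rise in ileum (0.57 ± 0.17, adjusted p = 0.0262), with medians of 2.69 CPM in TRF and 1.64 CPM in ALF. The adrenal call was lost when 3 of the 12 clock times were left out in turn, and the ileum call when 5 were. In ileum 7 of 9 adipocyte markers rose, and their median log2 fold change was 1.08, and their part in the result was not tested.

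The white fat libraries differed between the feeding groups in RNA of markers of several cell types. In iWAT 7 of 8 skeletal muscle fibre markers rose in TRF, with a summed level of 10.0 to 12800 CPM (median 2163) in TRF and 22.3 to 5797 CPM (median 174) in ALF. All 8 lymphocyte markers rose there as well, and 8 of 9 adipocyte markers fell. In eWAT 7 of 8 macrophage markers fell, with a summed level of 949 to 4497 CPM (median 1275) in TRF and 882 to 6121 CPM (median 2930) in ALF, and 8 of 9 adipocyte markers rose. None of these defining markers was at 0 in all libraries of either depot. Their part in the changes of the members in fat was not tested. Without the 5 iWAT libraries that stood apart, Nampt (adjusted p = 0.00312), Sirt1 (0.00217), Nmnat3 (6.77e-05) and Nnmt (3.59e-05) passed in iWAT and Nmrk1 did not (0.0549). Without the library that stood apart in their tissue, Nampt in muscle (adjusted p = 0.00472), Nnmt in ileum (0.00662), and Sirt1 (0.00113), Nmnat3 (0.00749) and Sirt3 (0.0417) in duodenum passed as well.

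Beside these markers, Nmnat3 rose in both depots. In iWAT it held 7.52 to 20.2 CPM in TRF (median 13.6) and 7.98 to 14.2 CPM in ALF (median 9.66), a log2 fold change of 0.48 ± 0.07 (adjusted p = 1.2e-06). In eWAT it held 5.43 to 20.8 CPM in TRF (median 11.2) and 4.41 to 21.1 CPM in ALF (median 7.43), a log2 fold change of 0.51 ± 0.14 (adjusted p = 0.00171), lost without replicate 1 (adjusted p = 0.414). In duodenum (-0.25 ± 0.08), jejunum (-0.14 ± 0.05) and heart (-0.11 ± 0.04) Nmnat3 fell, and in spleen (0.34 ± 0.10) it rose. Each of these 4 was lost under some setting: duodenum with GC offsets (adjusted p = 0.103), heart with the number of runs (0.0685), jejunum when any of 5 clock times was left out and spleen when any of 6 was. Nmnat1 passed in KIC alone (0.18 ± 0.06, adjusted p = 0.0251), a call lost when any of 4 clock times was left out. Nmrk1 rose in iWAT (0.14 ± 0.05) and fell in jejunum (-0.245 ± 0.065), and both calls were lost with GC offsets (adjusted p = 0.0686 in iWAT and 0.288 in jejunum). In SCN the estimates of Nmrk1 (-1.39) and Nmnat3 (-1.05) were the lowest of those genes but did not pass. Nmrk1 was listed at 0 in 7 of 22 TRF and 1 of 23 ALF libraries of SCN, and Nmnat3 in 11 of 22 TRF and 7 of 23 ALF libraries.

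Sirt1 was higher in TRF in duodenum, hypothalamus, eWAT and iWAT and lower in jejunum and spleen. The neighbouring gut segments went opposite ways. In duodenum the TRF libraries held 27.4 to 53.8 CPM (median 36.7) and the ALF libraries 19.9 to 38.5 CPM (median 30.1), higher in TRF at 12 of 12 clock times, with a log2 fold change of 0.28 ± 0.06 (adjusted p = 0.000387). In jejunum the TRF libraries held 25.1 to 42.7 CPM (median 33.3) and the ALF libraries 32.6 to 55.7 CPM (median 38.6), a log2 fold change of -0.24 ± 0.05 (adjusted p = 9.46e-05). With GC offsets these became 0.13 (adjusted p = 0.0396) and -0.12 (adjusted p = 0.0424). In the whole hypothalamus the log2 fold change was 0.185 ± 0.037 (adjusted p = 0.000213), and 0.12 with GC offsets (adjusted p = 0.00944), with 11.8 to 20.1 CPM in TRF (median 16.2) and 12.7 to 17.5 CPM in ALF (median 14.7). It was the only changed pair of 41 tested in the 6 brain regions (2.44%), where 6.04% of all gene tests passed. Of all genes, 32.4% changed in the whole hypothalamus, 0.186% in DG, 0.00708% in ARC and 0% in SCN, DMH and amygdala. Library totals in the whole hypothalamus differed between the groups, with medians of 22.5 M in TRF and 39.1 M in ALF. The part of depth in these calls was not tested. With a term for the number of runs, Sirt1 passed there (edgeR, adjusted p = 0.00313). Sirt1 rose by 0.22 ± 0.06 in eWAT and 0.28 ± 0.06 in iWAT, both lost without replicate 1 (adjusted p = 0.406 in eWAT and 0.139 in iWAT), and fell by 0.27 on the log2 scale in spleen, a call lost when any of 8 clock times was left out. Sirt3 fell in duodenum (-0.23 ± 0.08, adjusted p = 0.0261), lost without replicate 2 (adjusted p = 0.79), and rose in eWAT (0.21 ± 0.07, adjusted p = 0.0115), lost without replicate 1 (adjusted p = 0.342).

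Splitting the day by access to food gave few further calls. At ZT0 to ZT12, when TRF mice had none, 8 of 151 pairs were higher in TRF, against 5.35% of all gene tests, and 7 were lower, against 5.61%. At ZT14 to ZT22 10 pairs were higher, against 7.37%, and 8 were lower, against 7.14%. The TRF effect differed between the windows for 1 pair, Sirt3 in liver, against 0.895% of all gene tests. Its log2 fold change was -0.55 at ZT14 to ZT22 (adjusted p = 0.00144) and -0.0054 at ZT0 to ZT12, a difference of -0.54 ± 0.16 (adjusted p = 0.0332). Means over the clock times were 131 CPM in TRF and 193 CPM in ALF at ZT14 to ZT22, and 166 CPM in TRF and 163 CPM in ALF at ZT0 to ZT12. The difference between the windows was lost without ZT0 and ZT22 (adjusted p = 0.06). In eWAT Nampt rose by 0.65 at ZT14 to ZT22 (adjusted p = 0.000153), while its 0.09 at ZT0 to ZT12 did not pass, and the test of that difference did not pass (adjusted p = 0.0609).

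The other genes of NAD metabolism were read from lists that include the members. Of 203 tests over the 11 NAD synthesis genes, 26 were higher in TRF and 14 lower, and the median log2 fold change was 0.00246. The largest change was Nmrk2, a kinase known from muscle, at 2.68 ± 0.72 in iWAT (adjusted p = 0.0014), beside the rise of muscle fibre markers there. Qprt, which feeds NAD synthesis from the tryptophan route, followed at 1.10 ± 0.22 in iWAT (adjusted p = 5.27e-05), and Nmnat2, the neuronal adenylyltransferase, at 0.71 ± 0.17 in adrenal (adjusted p = 0.0017). Of 88 tests over 8 genes of the tryptophan route 9 were higher and 9 lower, led by Tdo2 in eWAT (1.65 ± 0.39), Kynu in iWAT (1.26 ± 0.28) and Acmsd in spleen (1.19 ± 0.30). Of 280 tests over 14 consumers and clearance genes 35 were higher and 29 lower, led by the NAD hydrolase gene Bst1 in iWAT (1.17 ± 0.21), the oxidase Aox1 in pancreas (0.88 ± 0.18) and Nnmt in liver. Of 80 tests over 4 transport and redox genes 11 were higher and 7 lower, led by the nucleoside transporter Slc29a1 in jejunum (0.475 ± 0.068), with the transhydrogenase Nnt in muscle (-0.36 ± 0.09) and the mitochondrial NAD carrier Slc25a51 in iWAT (-0.21 ± 0.05). Of 154 tests over the 7 sirtuins 16 were higher and 12 lower. Sirt6, a nuclear deacetylase, was lower in duodenum (-0.61 ± 0.11) and higher in jejunum (0.59 ± 0.08), and Sirt7 was lower in duodenum (-0.455 ± 0.081). Over the 5 lists, 10.2% to 13.8% of tests were higher and 6.9% to 10.4% lower, beside the 10.0% and 9.72% of all gene tests. Among the other sirtuins Sirt5, a mitochondrial desuccinylase, was rhythmic in the most tissues in TRF, 13, and in 3 tissues in ALF.

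The daily courses of the members were set against those of 9761 genes that passed the filter in all tissues, by Pearson's r over the means of tissue, feeding group and clock time, centred within each tissue. The means share libraries and mice, so the values are a description. Nampt was most like Wee1 (r = 0.587), a cell cycle kinase gene, and next like Tmem57 (r = 0.581) and Rev1 (r = 0.580). By Spearman's rho, Tmem57 (0.54) and Rev1 (0.58) stayed among its 3 nearest genes and Wee1 (0.504) did not. Sirt1 was most like Tnks2 (r = 0.604), Rsbn1 (r = 0.604) and Sp3 (r = 0.584), and Sirt3 like Dctn2 (r = 0.644), Coq9 (r = 0.594) and Atraid (r = 0.579). The nearest genes were Tamm41 for Nmnat3 (r = 0.453), Tirap for Nmnat1 (r = 0.50), Ptgs1 for Nmrk1 (r = 0.470) and Fgd5 for Nnmt (r = 0.490). For the last 3 of these Spearman's rho was 0.283 or less. None of these genes was among the 3 nearest by rho. Among the members themselves the highest value was that of Nampt and Nmrk1 (r = 0.338), and Sirt1 and Sirt3 ran weakly against each other (r = -0.244).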

How the data were processed

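Poly(A) RNA libraries of 22 tissues were sequenced, and the deposited table holds estimated counts per gene, of which 29.62% were not whole and were rounded here. CASAVA 1.8, FastQC 0.11.8, STAR 2.5.3a, HOMER 4.10 and the mm10 (GRCm38) build are named in the submitters' processing notes. Whether repeated sequencing runs were added into a library's column is not given in the sources used here; median totals were 10.6 M for libraries with 1 run and 19.0 M for those with 4. Of 24537 rows, 4 with repeated names were left out. Ileum and liver carry labels that continue past ZT22 and were read at the same clock times as the other tissues.

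Each tissue was fitted separately with edgeR 4.0.16 (R 4.3.3; filterByExpr, TMM, quasi-likelihood test), with Benjamini-Hochberg adjustment over its genes and a threshold of 0.05. The mean level was tested with clock time as a factor, rhythm per feeding group with cosine and sine terms (period 24 h), and windows at ZT0 to ZT12 and ZT14 to ZT22. Amplitudes, peaks and SEs came from limma 3.58.1 on log2 CPM with a prior count of 2, the SEs by the delta method. Alternatives used DESeq2 1.42.0, other filters, GC offsets, the number of runs, and left-out libraries, replicates, clock times and BAT, the last chosen after seeing the data. The text names the 7 genes in every tissue, the genes most like each, and up to 3 called genes per pathway list, those with the largest absolute log2 fold change. The members and lists were chosen with earlier results of these data known. Counts were simulated for eWAT, liver and DMH (14130, 12360 and 14510 genes), with the changed genes drawn from those averaging at least 5 CPM. Of genes changed in mean level by 0.5 on the log2 scale, 93%, 95% and 90% were found, with 5, 11 and 11 false calls. With a rhythm of log2 amplitude 0.5 in TRF alone, the test of a difference in rhythm found 50%, 55% and 58%.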

Additional observations from a re-analysis of the deposited data

Results flagged for a closer look

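In 1 of 151 tested pairs of gene and tissue (0.662%), Sirt3 in liver, the effect of TRF against ALF differed between 2 parts of the day. The test was of the difference itself, and 0.895% of all gene tests passed it. The log2 fold change was -0.549 ± 0.125 at ZT14 to ZT22, when TRF mice had food, and -0.0054 at ZT0 to ZT12, when they had none. The difference between the windows was -0.544 ± 0.163 (SE, edgeR quasi-likelihood test, adjusted p = 0.0332). Without ZT0 and ZT22 the difference did not pass (adjusted p = 0.06). It was lost without replicate 1 (adjusted p = 0.349) and without replicate 2 (adjusted p = 0.375).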

How the results depend on the processing

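All 28 changes of the mean level kept their direction under every alternative run. The order of tissues for Nnmt did not hold, since by library totals alone liver no longer came first. Leaving out 1 replicate number had the largest effect on the counts of called pairs. Without replicate 1 or 2, the changed pairs numbered 9 to 20 (28 with all libraries), those rhythmic in TRF 19 to 32 (44), those rhythmic in ALF 9 to 11 (25), those whose rhythm differed 0 to 1 (4), those changed at ZT0 to ZT12 4 to 10 (15), at ZT14 to ZT22 4 to 12 (18), and those whose effect differed between the windows 0 to 0 (1). Such a fit has 1 library per clock time and feeding group. Without the filter on low counts, the rhythm differed for 2 pairs and the window effects for 2. GC offsets gave 2 pairs with different window effects, and leaving out ZT0 and ZT22 gave 0. Leaving out 1 clock time gave 23 to 32 changed pairs. BAT held no called pair, so leaving it out cannot alter a count.

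With the replicate block, 28 pairs changed in mean level, 46 were rhythmic in TRF, 26 in ALF and 4 differed in rhythm, with 18 and 18 changed in the windows and 1 differing between them. Same-numbered libraries showed no steady pairing: over 245 comparisons their deviations correlated between -0.806 and 0.761, above 0.1 in 85 and below -0.1 in 58. The labels do not say how the replicate numbers were given, and these values cannot tell whether some libraries were paired.

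Scaling by library totals alone gave means of 15.3 CPM for Nmnat1 in muscle (23.4 CPM with TMM), 22.8 CPM for Nmnat3 in muscle (34.9 CPM) 80.7 CPM for Sirt3 in liver (163 CPM) and 165 CPM for Nnmt in liver (337 CPM). Spearman's rho in place of Pearson's r was 0.231 for Nmrk1 and Ptgs1, 0.283 for Nnmt and Fgd5, and 0.218 for Nmnat1 and Tirap. The cause of these shifts was not tested. Median library totals were lowest in KIC (4.50 M in TRF and 5.14 M in ALF) and KIM (5.06 M in TRF and 4.49 M in ALF).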
